A study of Mus musculus with 16 samples.

Results

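The kinesin, dynein and dynactin genes encode the motors that move cargo along microtubules and the complex that links dynein to its cargo. They were taken from the array annotation as every probe set with exactly 1 gene symbol that begins with Kif or Klc and a digit, or with Dync, Dynl or Dctn; the mitotic kinesins Kif11, Kif20a and Kif23 were left out. This gave 57 genes of 21634 with a symbol of their own, and 1550 probe sets of 303629. A probe set is a small group of array probes that mostly reads 1 exon or part of one. Of the 57 genes, 53 had a measurable level and were tested. The other 4 were Dynlrb2, with 2 of its 5 probe sets above the floor defined below, and Dynlt1, Kif2b and Kif4b, with 1 probe set each.

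Kinesins use ATP to walk along microtubules, most of them toward the plus end, which in an axon points away from the cell body. Cytoplasmic dynein walks toward the minus end and needs dynactin for long runs, so that together they bring endosomes, autophagosomes and survival signals back to the soma. Neurons depend on both directions because their axons are far longer than diffusion can serve, and the same families also build cilia and the mitotic spindle.

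RNA came from CD1 mouse embryos shortly before birth (E18.5), from whole brain or from spinal cord. Each tissue was taken from wild type embryos and from Nova1/2 double knockouts, which lack both Nova proteins, RNA-binding regulators of alternative splicing in neurons. Both genotypes in both tissues make 4 groups of 4 arrays, and each array was a separate biological replicate. In whole tissue, fewer cells of a type and less RNA per cell cannot be told apart.

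Values were summarised as log2(intensity + 16), so that a log2 difference understates the change of dim probe sets. The floor was the median of all probe sets, 6.73, and a gene's level is the median over its probe sets above that floor. The level is read between arrays for the same gene and not between genes. The exon index subtracts, array by array, the gene level from the log2 value of each probe set; it was tested for 1209 probe sets of the 53 motor genes.

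Median intensity ran from 72.3 to 82.9 on brain arrays and from 99.5 to 116.2 on cord arrays, and the number of arrays limits the precision. On the log2 scale, Nova1 differed by -5.03 between double knockout and wild type brains and by -5.31 between cords, and Nova2 by -0.75 and -1.14 (adjusted p = 0.00162 in brain and 2.43e-06 in cord). The deleted parts of both genes were not mapped to the probes. The cord arrays differed in skeletal muscle RNA. The mean level of 14 muscle markers lay between 6.87 and 7.08 on all brain arrays, but was 10.13, 7.57, 7.69 and 9.33 in wild type cords 1 to 4 and 7.33, 9.50, 7.63 and 8.97 in double knockout cords 1 to 4. Wild type cords 1 and 4 and double knockout cords 2 and 4, all above 8, are called the muscle-rich cords. The mean level of 13 neuron markers lay between 10.91 and 11.28 on all 16 arrays.

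The kinesin-1 light chain genes Klc1 and Klc3 lay on opposite sides when wild type cord was set against wild type brain (values follow), and the promoter windows of both are therefore shown. Each runs from 250 bases before to 50 after the RefSeq start, in assembly GRCm38.p6, with CG pairs in capitals. The first lies at chr12:111758618-111758917 on the plus strand and the second at chr7:19404055-19404354 on the minus strand.
Klc1: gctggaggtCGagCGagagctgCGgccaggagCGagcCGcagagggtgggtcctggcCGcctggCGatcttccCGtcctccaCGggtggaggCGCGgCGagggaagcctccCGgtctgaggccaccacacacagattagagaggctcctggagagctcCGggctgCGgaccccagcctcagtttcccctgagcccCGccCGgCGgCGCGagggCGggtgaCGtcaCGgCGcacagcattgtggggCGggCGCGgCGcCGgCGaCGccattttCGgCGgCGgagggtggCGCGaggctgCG
Klc3: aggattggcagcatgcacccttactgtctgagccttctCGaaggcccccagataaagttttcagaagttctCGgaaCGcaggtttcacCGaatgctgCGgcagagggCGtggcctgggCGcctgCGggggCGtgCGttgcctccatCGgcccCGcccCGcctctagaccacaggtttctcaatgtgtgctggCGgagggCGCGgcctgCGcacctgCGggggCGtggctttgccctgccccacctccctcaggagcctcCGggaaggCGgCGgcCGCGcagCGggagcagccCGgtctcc
Klc1 holds 37 CG pairs and Klc3 holds 26. Over the 44 motor genes with a window in the RefSeq table the median was 24, against 7 over all 27025 windows, and 54.5% of the motor genes held at least 20 against 26.8% of all. The letters TATAAA, searched on both strands with no other motif, occurred in 4 of the 44 (9.09%) against 14.2% of all windows. These counts describe sequence composition only and were set against no array value. The 27025 windows were not limited to the genes tested here, so a difference from them is not shown to be particular to motor genes.

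In brain, none of the 53 motor genes passed the test between double knockout and wild type, where 0.268% of all 14570 genes did (39 genes). None of the 53 reached an unadjusted p under 0.05 either, against 5.33% of all genes. The median change of the motor genes was 0.02 on the log2 scale, the same as that of all genes, and changes ran from -0.19 for Klc3 to 0.22 for Kif26a. The 95% interval of the change lay within 0.5 log2 units of 0 for 51 of the 53 genes, and within 1 for all 53. The groups did not overlap for 1 gene, Kif3a, a subunit of heterotrimeric kinesin-2, with a change of -0.14 (adjusted p = 1.00); 4% of all genes were separated in this way.

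The brain gene with the lowest p was Dynlrb1, a roadblock light chain of dynein. Its level was 11.97, 12.03, 11.86 and 11.94 in the wild type brains and 12.02, 12.19, 12.26 and 12.09 in the double knockouts. The difference was 0.19 (SE 0.093, 95% interval -0.01 to 0.38, adjusted p = 0.976), and 1 wild type array lay inside the double knockout range. Kif21b, a neuronal kinesin-4 that regulates microtubule growth, read 10.47, 10.42, 10.31 and 10.51 against 10.57, 10.73, 10.50 and 10.64. Their ranges met at the edge, and the difference of 0.18 did not pass (adjusted p = 1.00). Kif13b, a kinesin-3 of endosome and receptor transport, read 7.80, 7.90, 7.82 and 7.95 against 7.97, 8.08, 7.85 and 8.07, a difference of 0.13 that did not pass. The light chains Klc1, Klc2 and Klc3 made up the other three of the lowest 6, with differences of 0.18, -0.14 and -0.19 (adjusted p = 1.00 for each).

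In spinal cord, 1 of the 53 motor genes changed between the genotypes, Klc2, which fell. This is 1.89% of the motor genes, beside 5.63% of all genes called in either direction and 4.55% called lower. At an unadjusted p under 0.05 there were 12 motor genes (22.6%), against 19.5% of all genes. The median change was -0.04 over the motor genes and -0.03 over all genes. Intervals lay within 0.5 log2 units of 0 for 43 of the 53 genes and within 1 for all 53. The groups of 4 arrays did not overlap for 8 motor genes (15.1%), beside 11.5% of all genes.

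**Figure D1:**
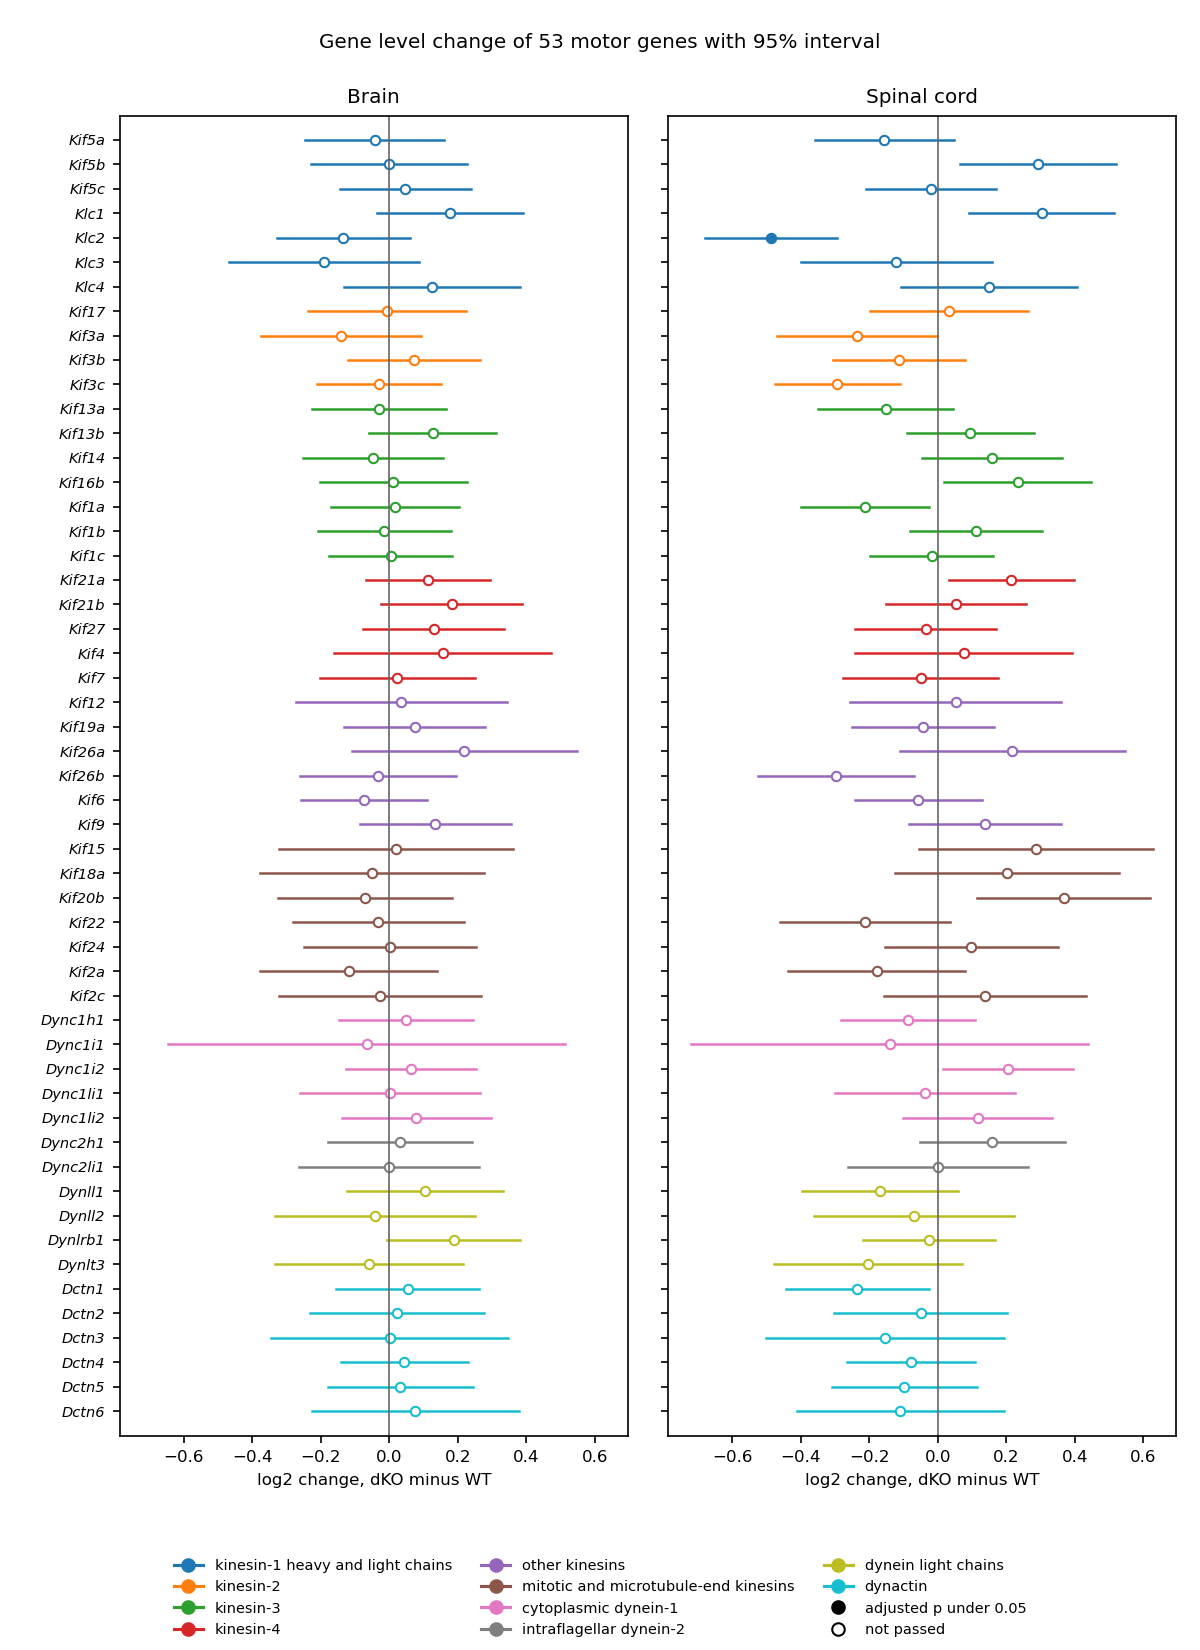
Log2 difference in gene level, double knockout minus wild type, for each of the 53 motor genes in brain and in spinal cord, with its 95% interval, grouped by motor family. Klc2 in cord, at -0.49, is the only motor gene that passed the test in either tissue.

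Klc2 is a light chain of kinesin-1, the subunit that binds many of its cargoes. Its level in the wild type cords was 9.53, 9.49, 9.45 and 9.27, and in the double knockout cords it was 9.07, 8.79, 8.96 and 8.96. Every double knockout cord lay below every wild type cord. The means were 9.43 ± 0.114 and 8.95 ± 0.116 (SD, n = 4), a 1.40-fold difference (log2 -0.49, SE 0.093, 95% interval -0.68 to -0.29, adjusted p = 0.00367). In brain the wild types read 9.12, 9.21, 9.10 and 9.20 and the double knockouts 9.01, 9.03, 9.16 and 8.88, with 3 of 4 double knockouts below all wild types. The brain change of Klc2 was -0.14 (95% interval -0.33 to 0.06), and the change in cord minus the change in brain was -0.35, which did not pass (95% interval -0.63 to -0.08, adjusted p = 0.496).

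Nearly all of its probe sets shared the fall of Klc2, whose level is their median, so they are not separate evidence for it. For 10 of its 17 probe sets above the floor the groups did not overlap, with no share over all probe sets to set beside this count. Changes ran from -0.72 to 0.02, and 16 of the 17 were lower on average in double knockout cord. The exception was probe set 5388866, with a mean log2 intensity of 10.67 in wild type and 10.69 in double knockout cord. Relative to its gene it therefore lay higher: its exon index was 1.24, 1.33, 0.98 and 1.40 in the wild type cords and 1.72, 1.94, 1.69 and 1.65 in the double knockouts. These groups did not overlap, again with no share over all probe sets beside it, but the difference of 0.51 (SE 0.115) did not pass (adjusted p = 0.0737). In brain the same probe set read 1.81, 1.41, 1.68 and 1.54 against 1.69, 2.03, 1.96 and 1.88, a difference of 0.28 (adjusted p = 1.00).

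**Figure D2:**
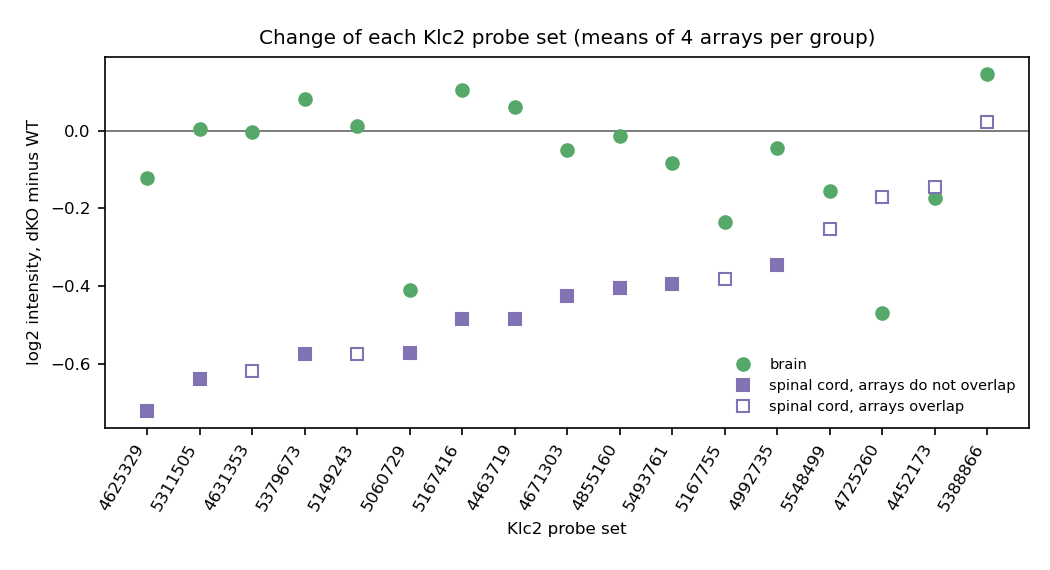
Change in log2 intensity between double knockout and wild type for each of the 17 Klc2 probe sets above the floor, in spinal cord and in brain, in order of the cord change. In cord 16 of the 17 lie below 0, and the last lies at 0.02.

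Without the 4 muscle-rich cords the Klc2 change was -0.45, with an adjusted p of 0.115 over the 2 remaining cords of each genotype. No motor gene was called then, with no share over all genes to set beside this. The 2 wild type cords left were low in Xist (4.60 and 4.91) and the 2 double knockout cords left were high (11.39 and 11.73). In this setting embryo sex, read from Xist, and genotype therefore cannot be told apart. Markers of other cells also moved between the cord genotypes: 7 of 11 astrocyte markers were lower in the double knockouts (median -0.49), as were 3 of 8 markers of the oligodendrocyte lineage (median -0.30), 1 of 14 muscle markers and 1 of 5 blood markers. The astrocyte list mean lay between 9.51 and 9.90 in wild type cords and between 9.17 and 9.42 in double knockouts. Of 13 neuron markers 1 was higher and 2 were lower (median -0.04), and none of 17 mitotic markers passed (median 0.08). The part of these markers in the Klc2 difference was not tested.

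After Klc2, the motor gene with the lowest p in cord was Kif3c, a neuronal kinesin-2 that pairs with Kif3a. It read 10.18, 9.997, 9.94 and 9.89 in wild type cords and 9.78, 9.72, 9.66 and 9.67 in double knockouts. No arrays overlapped, and the difference of -0.29 (SE 0.0872, 95% interval -0.48 to -0.11) just missed the threshold (adjusted p = 0.0529). Without wild type cord 4 Kif3c passed, at -0.33 (adjusted p = 0.0294), and Kif26b passed as well. Leaving out other cord arrays in turn left Kif3c at up to -0.23, with an adjusted p of up to 0.143.

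Klc1, the kinesin-1 light chain enriched in neural tissue, read 10.67, 10.69, 10.78 and 10.72 in wild type cords and 11.04, 11.04, 10.90 and 11.10 in double knockouts. All double knockouts lay above all wild types, by 0.30 on average (SE 0.102, 95% interval 0.09 to 0.52), but the difference did not pass (adjusted p = 0.0905). In brain Klc1 read 11.33, 11.55, 11.16 and 11.28 in wild types and 11.39, 11.44, 11.76 and 11.44 in double knockouts, with overlapping groups. Klc1 and Klc2 thus had cord differences of opposite sign, of which only that of Klc2 passed.

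Klc3, whose gene lies 21 tested genes from the targeted Nova2 locus on chromosome 7 in RefSeq order, read 8.15, 8.27, 8.41 and 8.55 in wild type cords and 8.15, 8.58, 7.99 and 8.18 in double knockouts. Its cord groups overlapped, with a difference of -0.12 (adjusted p = 0.687). In brain it read 7.66, 7.31, 7.77 and 7.62 against 7.46, 7.17, 7.38 and 7.58. Klc1 lies 315 tested genes from Nova1 on chromosome 12, and Kif3c, described above, lies 121 tested genes from Nova1. Klc4, the fourth light chain, differed by 0.15 in cord and 0.13 in brain, and neither difference passed.

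**Figure D3:**
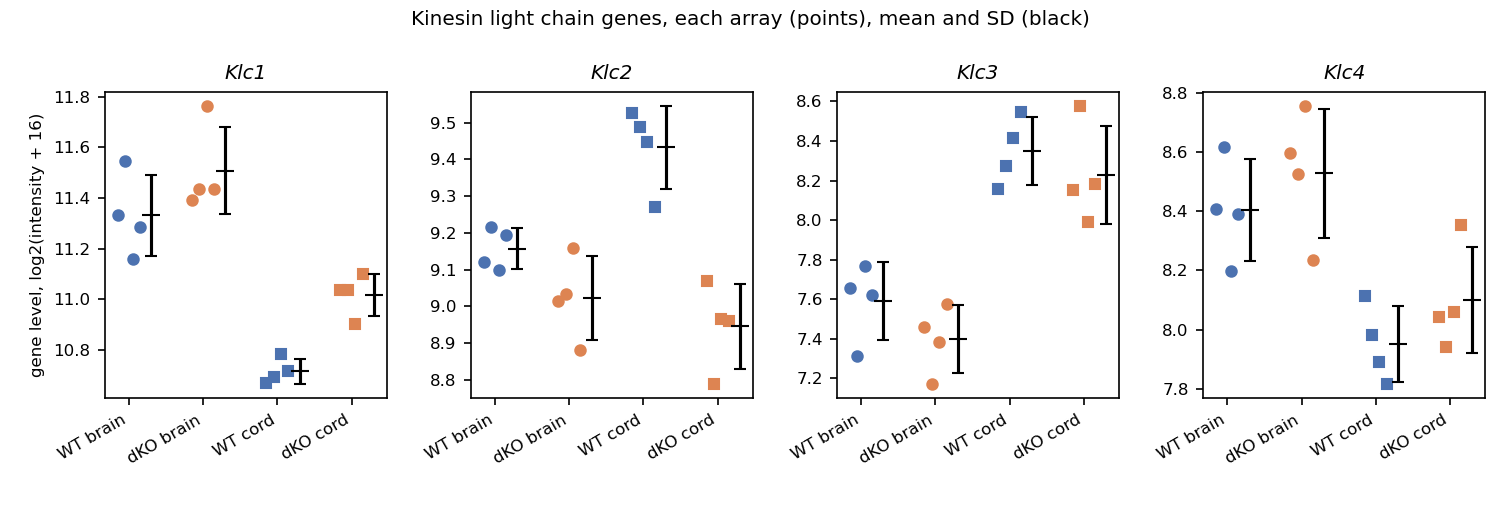
Gene level, as log2(intensity + 16), of the 4 kinesin-1 light chains Klc1, Klc2, Klc3 and Klc4 on all 16 arrays; points are arrays, and black marks give the mean and SD of each group. Klc2 separates the cord genotypes downward, and Klc1 separates them upward without passing the test.

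Of the kinesin-1 heavy chains, Kif5b, the form found in most cell types, read 9.55, 9.29, 9.29 and 9.38 in wild type cords and 9.56, 9.75, 9.53 and 9.85 in double knockouts. The lowest double knockout lay within the wild type range, and the difference of 0.29 did not pass (SE 0.109, adjusted p = 0.128). The neuronal heavy chains Kif5a and Kif5c had cord differences of -0.16 and -0.02 (adjusted p = 0.409 and 0.938).

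Kinesins outside the axonal transport families completed the lowest 6 p-values in cord. Kif20b, a kinesin of late cytokinesis, read 6.86, 6.82, 6.59 and 6.93 in wild type cords and 7.03, 7.46, 7.05 and 7.13 in double knockouts. These levels sit close to the floor, and the difference of 0.37, in which the groups did not overlap, did not pass (SE 0.121, adjusted p = 0.0832). Kif26b, an atypical kinesin known from kidney development, read 9.99, 9.69, 9.84 and 9.53 against 9.56, 9.46, 9.45 and 9.39. Its difference of -0.30 did not pass (SE 0.108, adjusted p = 0.121), but without wild type cord 4 it was -0.38 (adjusted p = 0.0367). Leaving out other arrays left it at up to -0.22, with an adjusted p of up to 0.277.

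The other genes with separated cord groups were Kif1a, the kinesin-3 of synaptic vesicle precursors (-0.21, adjusted p = 0.189), Kif21a (0.21, adjusted p = 0.169), the dynein intermediate chain Dync1i2 (0.21, adjusted p = 0.210) and the chromokinesin Kif22 (-0.21, adjusted p = 0.348). No dynein or dynactin gene passed in cord. All 6 Dctn genes of dynactin had a cord difference below 0 (median -0.10, beside -0.03 over all genes). They ran from -0.24 for Dctn1, the p150Glued subunit that holds the microtubule, to -0.05 for Dctn2, dynamitin (lowest adjusted p = 0.192). Of the dynactin genes read with the partners below, Actr1a differed by -0.06 and Actr10 by 0.13, and neither passed. The 4 dynein light chains also lay below 0, from -0.20 for Dynlt3 to -0.03 for Dynlrb1. Over all 53 motor genes 30 cord differences were below 0.

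The change in cord minus the change in brain passed for none of the 53 motor genes by limma, where 0% of all genes passed. At an unadjusted p under 0.05 there were 3 motor genes (5.66%), against 8% of all genes. The widest differences were -0.35 for Klc2 and 0.44 for Kif20b. The brain and cord changes, which share no array, had a Pearson correlation of 0.40 and a Spearman correlation of 0.37 across the 53 genes, which are not independent replicates. Over all genes the Pearson correlation was 0.42. Of the motor genes 28 (52.8%) had the same sign in both tissues, against 58.1% of all genes.

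On the exon index, no motor probe set passed in brain, where 0.15% of all 193126 probe sets did. At an unadjusted p under 0.05 there were 21 of 1209 (1.74%), against 3.3% of all. In cord 2 motor probe sets passed, both higher in the double knockout (0.165% of the motor probe sets), beside 0.388% of all in either direction and 0.235% higher. Unadjusted, 131 of the 1209 (10.8%) lay under 0.05 in cord, against 11.8% of all. Both called probe sets belong to the dynein and dynactin side, 1 in Dynll1 and 1 in Dctn5. Positions of probe sets within their genes were not used here, so that none is named as an exon. Where groups are called separated on the exon index, the probe set was picked by its values. No share over all probe sets stands beside this, so separation is a description and not separate evidence.

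Dynll1 encodes the LC8 light chain, a small dimer bound by dynein and by many other proteins. The exon index of its probe set 4305026 was -4.15, -4.23, -4.44 and -3.99 in the wild type cords and -2.75, -2.63, -2.75 and -2.82 in the double knockouts. All 4 double knockouts stood more than 1 log2 unit above every wild type cord. The exon index rose by 1.46 (SE 0.11, adjusted p = 4.18e-06). In brain it was -3.57, -3.83, -3.91 and -3.56 in wild types and -3.43, -3.57, -3.27 and -3.50 in double knockouts, a difference of 0.27 that did not pass (adjusted p = 1.00).

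This Dynll1 probe set is dim. Its log2 intensity was 6.24, 6.34, 5.97 and 6.25 in wild type cords, all below the floor of 6.73, and 7.75, 7.68, 7.25 and 7.29 in double knockout cords. In brain the means were 7.23 and 7.61. The cord change minus the brain change of its exon index was 1.19 (SE 0.155), the lowest p of the 1209 motor probe sets, but it did not pass (adjusted p = 0.0937); 1 probe set of 193126 (0.000518%) passed that comparison.

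Dynll1 held a second dim probe set, 5190880, which falls outside the choice of 1 probe set per gene and was named after its values were seen. It had an exon index of -3.46, -3.25, -4.19 and -2.73 in wild type cords and -2.19, -2.48, -1.91 and -2.41 in double knockouts. These arrays did not overlap and differed by 1.15, which did not pass (SE 0.252, adjusted p = 0.0637). The other 11 Dynll1 probe sets had intensity differences of -0.36 to 0.14 in cord, and the Dynll1 level itself differed by -0.17 (adjusted p = 0.429). Of all 13 Dynll1 probe sets above the floor, 6 had a higher mean intensity in double knockout cord and 7 a lower one. The call on 4305026 held in all 17 alternative settings that gave it a value, at 1.07 to 1.67.

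Dctn5 encodes a subunit at the pointed end of dynactin. The exon index of its probe set 4931564 was -3.20, -3.37, -2.90 and -3.27 in wild type cords and -2.49, -2.34, -2.43 and -2.80 in double knockouts. Again the groups were separated, and the rise of 0.67 passed narrowly (SE 0.133, adjusted p = 0.0401). The mean Dctn5 level in wild type cord was 10.38, so this probe set is dim as well. In brain it read -3.19, -2.92, -2.69 and -3.01 in wild types and -2.66, -2.39, -2.32 and -2.49 in double knockouts. The brain groups did not overlap either, and the difference of 0.49 was the lowest p of the motor probe sets there without passing (adjusted p = 0.511). The cord call on Dctn5 was lost in 11 of 17 alternatives, among them a term for embryo sex read from Xist (0.63, adjusted p = 0.0614); Xist was high on 3 of 4 double knockout and 2 of 4 wild type cords, and on 4 of 4 and 2 of 4 brains. It was also lost on leaving out wild type cord 1 (0.66, adjusted p = 0.0755), 2 (0.61, 0.0877) or 4 (0.64, 0.0746), or double knockout cord 1 (0.66, 0.0803), 2 (0.61, 0.139) or 3 (0.64, 0.115).

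**Figure D4:**
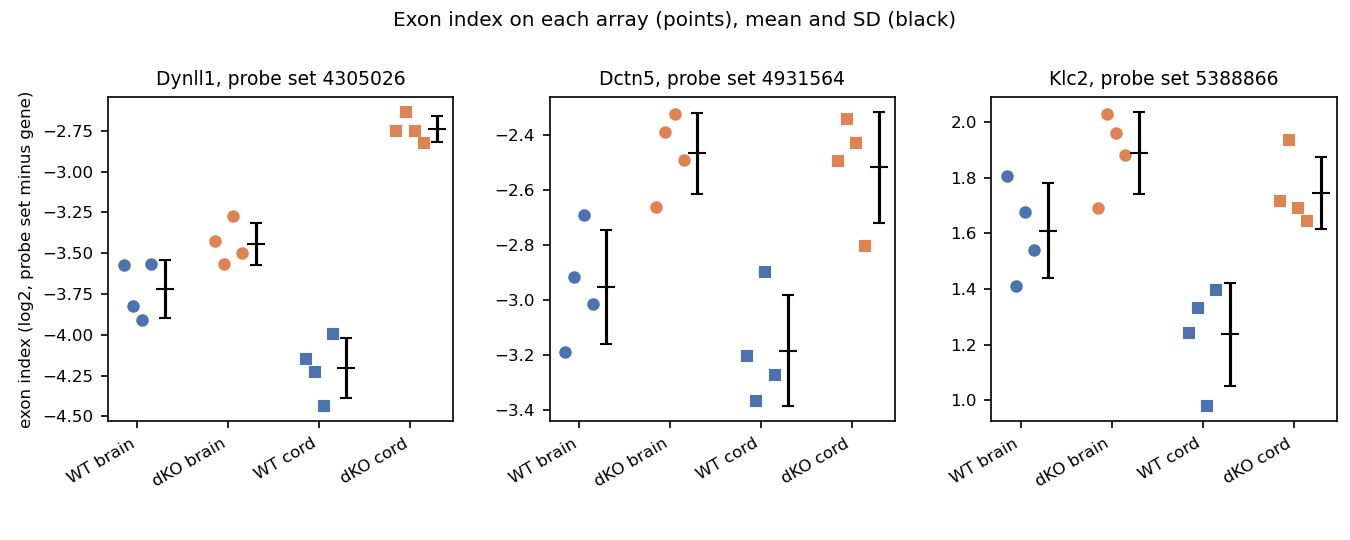
Exon index, in log2 units relative to the gene level, of Dynll1 probe set 4305026, Dctn5 probe set 4931564 and Klc2 probe set 5388866 on all 16 arrays; points are arrays, and black marks give the mean and SD of each group. The Dynll1 double knockout cords lie between -2.82 and -2.63, above the wild type cords at -4.44 to -3.99.

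With the probe set of lowest p taken once per gene, the lowest 6 in cord were completed by Klc2 5388866 and 3 more, and none of these passed. In Kif13b, probe set 5410556 read 0.35, 0.48, 0.09 and 0.11 in wild type cords and 0.78, 0.89, 0.59 and 0.63 in double knockouts. The groups were separated by 0.46 on average (adjusted p = 0.0653). In brain the difference was 0.02, with readings of 0.66, 0.85, 0.78 and 0.76 against 0.65, 0.78, 0.82 and 0.86. Without wild type cord 2 the cord difference passed, at 0.54 (adjusted p = 0.0305). Leaving out other cord arrays lowered it to as little as 0.41, with an adjusted p of up to 0.212.

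In Dync1i1, the intermediate chain of dynein found mainly in neurons, probe set 5169286 read -1.59, -1.06, -1.65 and -1.13 in wild type cords and -1.99, -2.31, -1.73 and -2.25 in double knockouts (-0.71, adjusted p = 0.0772). All double knockouts lay below all wild types, and the brain difference was -0.06. The Dync1i1 level was 8.21 to 8.56 in double knockout cords, so there this probe set lay below the floor. In Kif5b, probe set 4860913 read -1.31, -0.93, -1.39 and -1.29 against -1.37, -2.08, -1.90 and -2.13 (-0.64, adjusted p = 0.09). Double knockout cord 1 lay among the wild types, and without it the difference was -0.81 (adjusted p = 0.0121). Leaving out other arrays left the difference at up to -0.54, with an adjusted p of up to 0.265.

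The next 5 brain probe sets after Dctn5, again 1 per gene, all had an adjusted p of 1.00. The exon index of Kif26a 5099643 was 0.08, -0.25, -0.25 and -0.19 in wild type brains and -0.27, -0.67, -0.65 and -0.50 in double knockouts (-0.37). That of Klc3 4672844 was 2.14, 2.36, 2.29 and 2.22 against 2.39, 2.88, 2.86 and 2.60 (0.43). Both pairs of groups were separated in brain, in probe sets picked for their low p. Kif2a, a kinesin that takes microtubules apart at their ends, read 0.00, 0.00, 0.28 and 0.17 at probe set 4754980 against -0.18, -0.13, -0.19 and 0.00 (-0.24), with groups that meet at 0. An index of exactly 0 arises where the probe set is itself the median of its gene on that array. Kif3c 5451974 read 0.17, 0.38, 0.30 and 0.27 against 0.05, 0.05, 0.03 and 0.08 (-0.23). Kif19a 5048683 read 0.02, 0.00, 0.00 and 0.05 against -0.11, -0.27, -0.19 and -0.46 (-0.28). These last 2 were separated as well.

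Wild type cord differed from wild type brain in many motor genes, and mostly by being lower. Of the 53 genes 33 passed (62.3%, beside 60.4% of all genes): 7 were higher in cord (13.2%, beside 20.6% of all) and 26 were lower (49.1%, beside 39.8% of all). The median difference was -0.23 over the motor genes and -0.16 over all genes. The groups did not overlap for 21 motor genes (39.6%), beside 40.9% of all genes. Without the muscle-rich cords 29 passed, 7 higher and 22 lower, with no share over all genes to set beside this count.

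Cord and brain arrays also differed in the RNA of cell type markers. Of 14 muscle markers 13 were higher in wild type cord (median 1.67), as were 6 of 11 astrocyte markers (median 0.52) and 5 of 8 oligodendrocyte lineage markers (median 0.37). All 17 mitotic markers were below 0 and 16 passed as lower (median -0.48). Of 13 neuron markers 3 were higher and 7 lower (median -0.24), and of 10 ciliated cell markers 4 were higher and 1 was lower, with 6 of 10 below 0 (median -0.09). The part of these markers in the motor gene differences was not tested.

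**Figure D5:**
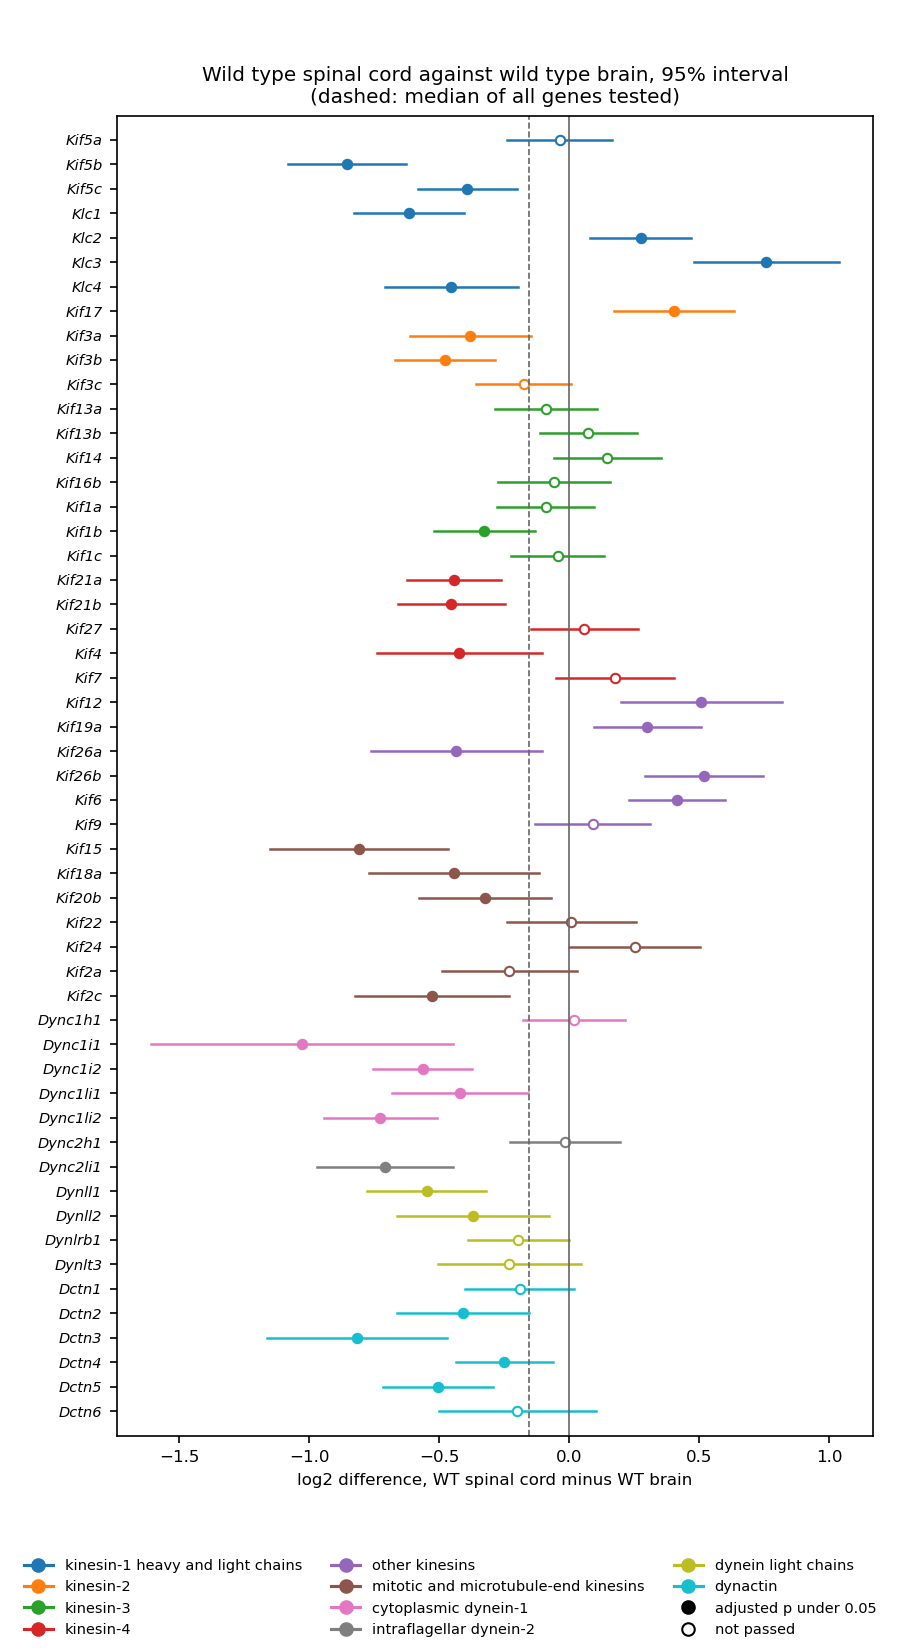
Log2 difference in gene level, wild type spinal cord minus wild type brain, for the 53 motor genes with 95% intervals, coloured by motor family; filled points passed the test and the dashed line marks the median of all genes, -0.16. Cytoplasmic dynein-1 and dynactin genes lie mostly left of 0, from -1.03 for Dync1i1, while Klc3, at 0.76, lies farthest right.

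Kinesin-1 was divided: of its 7 genes tested 4 were lower in cord and 2 were higher. Kif5b fell from 10.27, 10.36, 9.97 and 10.33 in wild type brains to 9.55, 9.29, 9.29 and 9.38 in wild type cords (-0.85, SE 0.109, adjusted p = 6.92e-06), a separated 1.81-fold difference seen as a lower mean in 34 of its 38 probe sets. Probe set counts here and below cover those above the floor. The gene level is their median, so they are not separate evidence for it. Kif5c was lower by a smaller amount (-0.39), and Kif5a, which is mutated in hereditary spastic paraplegia, differed by -0.04 without passing, with a 95% interval within 0.5 log2 units of 0.

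The light chains lay on both sides. Klc1 was 1.53-fold lower in wild type cord (-0.62, SE 0.102, adjusted p = 7.25e-05), with no overlap, and 22 of its 23 probe sets had a lower mean. Klc4 was 1.37-fold lower (-0.45, adjusted p = 0.00402). Klc3 was 1.69-fold higher in cord (0.76, SE 0.133, adjusted p = 0.000122), with all 4 cords above all 4 brains. Of its 17 probe sets only 8 lay above the floor, and these 8 were higher on average. Klc2 was 1.21-fold higher (0.28, SE 0.0928, adjusted p = 0.0158), with 14 of 17 probe sets higher on average. The Klc3 call was lost with no floor (0.46, adjusted p = 0.0535), and that of Klc2 with only the 8 wild type arrays (adjusted p = 0.0527). In the double knockouts the Klc2 cord levels, 8.79 to 9.07, overlapped the brain levels, 8.88 to 9.16.

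In kinesin-2, the ciliary and axonal motor subunits Kif3a and Kif3b were lower in cord (-0.38 and -0.48; adjusted p = 0.00695 and 0.000287). Kif17, a homodimeric kinesin-2 that carries NMDA receptor vesicles, read 7.07, 7.15, 7.26 and 7.14 in brain and 7.56, 7.25, 7.85 and 7.57 in cord. It was higher in cord by 0.40 (SE 0.11, adjusted p = 0.00429), with wild type cord 2 within the brain range. Quantile normalization ended the Kif17 call (0.11, adjusted p = 0.388). Kif3c differed by -0.18 without passing.

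Of the 7 kinesin-3 genes 1 passed: Kif1b, a motor of synaptic vesicle precursors and mitochondria, was lower in cord (-0.33, adjusted p = 0.00549). Kif1a differed by -0.09, with an interval within 0.5 log2 units of 0. Of the 5 kinesin-4 genes 3 were lower: Kif21a (-0.44), Kif21b (-0.45) and the chromokinesin Kif4 (-0.42). Kif7 and Kif27, which belong to the Hedgehog-linked branch, did not pass (0.17 and 0.06).

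Among 6 other kinesins 4 were higher in cord and 1 was lower. Kif26b read 9.18, 9.18, 9.49 and 9.14 in brain and 9.99, 9.69, 9.84 and 9.53 in cord (0.52, SE 0.108, adjusted p = 0.000571), with no overlap. Its relative Kif26a was lower in cord (-0.44, adjusted p = 0.0228). Kif12 was higher by 0.51 (SE 0.147, adjusted p = 0.00637), with cords at 7.53 to 7.79 and brains at 6.82 to 7.35, but not after quantile normalization (0.23, adjusted p = 0.194). Kif6, a kinesin of motile cilia, was higher by 0.42 (SE 0.0883, adjusted p = 0.000633), with cords at 7.93 to 8.01 above brains at 7.40 to 7.75. At a stricter floor its difference was -0.17 and did not pass. Kif19a, which limits the length of motile cilia, was higher by 0.30 (SE 0.0988, adjusted p = 0.0139), with 1 cord inside the brain range. That call ended with quantile normalization, which left 0.02 (adjusted p = 0.902), with a stricter floor (adjusted p = 0.0934), with only the 8 wild type arrays (adjusted p = 0.0557) and without wild type cord 3 (0.24, adjusted p = 0.0518). Kif9, another axonemal kinesin, differed by 0.09 without passing.

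Of the 7 mitotic and microtubule-end kinesins 4 were lower in cord and none was higher, beside the mitotic markers given above. Kif15, a spindle kinesin, read 7.82, 7.78, 7.49 and 7.63 in brain and 7.18, 7.09, 6.29 and 6.91 in cord (-0.81, SE 0.163, adjusted p = 0.000414). Every cord lay below every brain, and wild type cord 3 was the lowest. Kif2c (-0.53), Kif18a (-0.44) and Kif20b (-0.32) were also lower, while Kif2a (-0.23), Kif22 (0.01) and Kif24 (0.25) did not pass.

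Of the 5 cytoplasmic dynein-1 genes 4 were lower in cord. Dync1i1 had the widest difference of all motor genes, -1.03 (SE 0.277, 2.04-fold, adjusted p = 0.00388). It read 9.69, 9.98, 8.47 and 10.05 in brain and 8.96, 8.27, 8.89 and 7.98 in cord. Wild type brain 3 lay among the cords, and all 20 probe sets were lower on average in cord. Its partner Dync1i2 was lower by 0.56 with no overlap, from 10.65 to 10.89 in brain and from 10.04 to 10.37 in cord (SE 0.0908, adjusted p = 5.78e-05).

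The light intermediate chains, which bind cargo adaptors, were lower too: Dync1li2 read 10.65, 10.75, 10.44 and 10.52 in brain and 10.08, 9.72, 9.94 and 9.72 in cord (-0.73, SE 0.104, adjusted p = 2.06e-05), and Dync1li1 differed by -0.42 (adjusted p = 0.00781). The heavy chain Dync1h1, the motor subunit, differed by 0.02 (SE 0.0935, adjusted p = 0.879), and its 95% interval stayed within 0.5 log2 units of 0. For the ciliary dynein-2, Dync2li1 was lower in cord (-0.71, SE 0.125, adjusted p = 0.00013), with cords at 7.34 to 7.995 and brains at 8.10 to 8.47, while its heavy chain Dync2h1 differed by -0.02 (adjusted p = 0.889).

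The dynein light chains Dynll1 (-0.55, adjusted p = 0.000357) and Dynll2 (-0.37, adjusted p = 0.0291) were lower in cord, and Dynlrb1 and Dynlt3 did not pass (-0.20 and -0.23). All 6 Dctn genes of dynactin had a difference below 0 and 4 passed. Dctn3, a subunit of the dynactin shoulder, read 10.01, 10.27, 9.46 and 9.50 in brain and 9.09, 8.90, 9.12 and 8.87 in cord (-0.82, SE 0.166, adjusted p = 0.000432), without overlap and with all 10 probe sets lower on average. Dctn5 (-0.50), Dctn2 (-0.41) and Dctn4 (-0.25) were also lower. Dctn1 and Dctn6 did not pass (-0.19 and -0.20).

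On the exon index, 240 of the 1209 motor probe sets differed between the wild type tissues (19.9%, beside 22% of all): 145 were higher in cord (12%, beside 12.4% of all) and 95 were lower (7.86%, beside 9.59% of all). With the gene level taken as a mean over probe sets, 131 were higher and 158 lower. The 240 lay in 48 of the 53 genes; Dctn5, Dctn6, Dynlt3, Kif24 and Kif7 had none. Dynll1 had 8 of 13 called and Kif2c 11 of 19, whereas the neuronal heavy chain Kif5a had 3 of 38. Without the muscle-rich cords 145 passed. The counts under these alternative settings have no share over all probe sets beside them.

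The 6 tissue probe sets of lowest p, 1 per gene, were all higher in cord relative to their gene. Kif9 4535856 read -0.12, -0.24, 0.00 and 0.00 in wild type brains and 1.34, 0.83, 0.83 and 1.03 in wild type cords (1.10, SE 0.112, adjusted p = 2.64e-05). In Kif3b, probe set 4994670 read -2.56, -2.65, -2.22 and -2.30 in brain and -1.01, -0.46, -0.40 and -1.21 in cord, a difference of 1.66 (SE 0.175, adjusted p = 3.29e-05). Kif21b 4535428 differed by 1.56 (SE 0.163, adjusted p = 3.01e-05), with brains at -3.68 to -2.92 and cords at -2.05 to -1.45. Each of these groups was separated by more than the range of either.

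For Dynll1, probe set 4924134 read 0.44, 0.32, 0.64 and 0.62 in brain and 2.08, 1.57, 1.68 and 1.69 in cord (1.25, SE 0.135, adjusted p = 3.69e-05). It is not one of the dim Dynll1 probe sets described above, and its mean log2 intensity rose from 11.45 to 12.15 while the gene level fell. Dctn2 4644054 differed by 1.49 (SE 0.173, adjusted p = 6.25e-05) and Kif2a 4694060 by 1.43 (SE 0.178, adjusted p = 0.000101). The double knockout cords kept the tissue pattern at Kif9 4535856, with 0.86, 0.75, 0.83 and 1.05 against 0.10, 0.09, 0.11 and -0.06 in double knockout brains.

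Genes for cargo adaptors and motor regulators were read as partners of the motors. Of 31 names listed 28 had a tested level. None passed in brain or in the change in cord minus that in brain, by limma. In cord 3 were lower in the double knockout and none was higher (beside 4.55% of all genes lower), and 23 of 28 were below 0, with a median of -0.12 against -0.03 over all genes.

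Hap1, the huntingtin-associated protein that binds kinesin-1 and dynactin, read 10.92, 10.83, 11.03 and 10.48 in wild type cords and 9.79, 9.53, 9.74 and 9.64 in double knockouts. The groups were far apart, and Hap1 fell by 1.14 on the log2 scale (SE 0.151, adjusted p = 0.000113). In brain Hap1 differed by -0.42 (adjusted p = 0.628). Snph, syntaphilin, which anchors axonal mitochondria, read 8.77, 8.96, 8.64 and 8.42 against 8.24, 7.92, 8.42 and 8.28 (-0.48, SE 0.126, adjusted p = 0.0282). Mapk8ip1, JIP1, a scaffold that binds kinesin light chains, read 10.27, 10.30, 10.31 and 9.98 against 10.04, 9.70, 9.60 and 9.76 (-0.44, SE 0.108, adjusted p = 0.0204). Snph was only just separated, between wild type cord 4 and double knockout cord 3, and Mapk8ip1 overlapped by 1 array.

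The partner count of 3 was 1 without wild type cord 1, 2 or 3 or without double knockout cord 2 or 4, 5 without wild type cord 4, and 1 without the muscle-rich cords. The share over all genes in these settings is not given. Between the wild type tissues 4 of 28 partners were higher in cord (beside 20.6% of all genes), among them Snph (0.55), and 13 were lower (beside 39.8% of all genes), among them Fez1 (-0.76), the lissencephaly gene Pafah1b1 (-0.69) and its binding partner Ndel1 (-0.67), both regulators of dynein. The partner median was -0.26, against -0.16 over all genes.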

How the data were processed

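Total RNA was hybridised to 16 mouse exon arrays, 1 per biological replicate. The authors deposited linear intensity values per probe set, processed by Affymetrix Power Tools and by PLIER (build mm8), per the submitters' processing notes; no version or setting is given in the sources used here. Groups and replicate numbers came from the sample titles.

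Values were taken as log2(intensity + 16). Gene levels needed 3 probe sets above the floor and exon indices 5. Group means were fitted over all 16 arrays and all features with limma 3.58.1 in R 4.3.3 (tables were read by data.table, version 1.17.8), with Benjamini-Hochberg adjustment at 0.05 over all features of a comparison. Probe set names came from the platform annotation. The members and lists were chosen with earlier results of these data known. Named are all called genes per genotype comparison, the 8 largest called rises and falls between tissues, and those of lowest p (6 genes, and 6 probe sets with 1 per gene). The scripts were tested on simulated data.

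Same-numbered brain arrays of the genotypes deviated together (correlations 0.21, 0.41, 0.35 and 0.27), and same-numbered cord arrays did not. No label explains the numbers, so a pairing of the brains is not established, and the reported tests used none. Alternatives changed the pseudocount, floor, normalization, summary, arrays and terms.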

Additional observations from a re-analysis of the deposited data

Results flagged for a closer look

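Among the named motor genes and probe sets, 88 groups of 4 arrays were examined for 1 array standing apart from the other three. There were 3 such groups, and chance gives about 1 in 20 groups. The Klc1 level on double knockout brain 3 was 11.765, above the other double knockout brains at 11.39 to 11.44. The Kif26b level on wild type brain 3 was 9.49, above the other wild type brains at 9.14 to 9.18. The exon index of Klc3 probe set 4672844 on double knockout cord 2 was 2.07, below the other double knockout cords at 2.51 to 2.53.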

How the results depend on the processing

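Counts of 0 for motor genes and probe sets in brain, and for cord minus brain, held in every alternative run (18 and 26 per count). The tissue count of 33 genes ran from 24 to 41. In cord the count of 1 gene was 2 with a pseudocount of 64, 3 with a floor at the 75th percentile, 5 with quantile normalization, 2 with a mean over probe sets, 2 with the replicate number as a block (same-numbered cord arrays did not deviate together), and 0 without the muscle-rich cords. Leaving out 1 array gave 1 to 3. The cord count of 2 probe sets was 1 with no floor, with a floor at the 75th percentile, with a mean over probe sets, with only the 8 arrays compared, without the muscle-rich cords and with a sex term, and 7 with quantile normalization; leaving out 1 array gave 1 to 3. The tissue count of 240 probe sets was 141 with only the 8 arrays compared and 145 without the muscle-rich cords. The partner count of 3 in cord was 5 with quantile normalization, 1 with only the 8 arrays compared and 1 without the muscle-rich cords; leaving out 1 array gave 1 to 5. The Kif6 tissue difference reversed to -0.17 (adjusted p = 0.182) with a floor at the 75th percentile. Of 24 named calls, 8 were lost in some alternative. The block changed no brain call. The settings without the muscle-rich cords, without both number 3 brains and with a term for embryo sex read from Xist were chosen after seeing the data. The counts under these settings are given without the share over all features in the same setting. Whether a count moved apart from the rest of the array is therefore not shown, and why calls and counts moved between settings was not tested. Signal close to the floor limits Kif20b and the dim Dynll1 probe sets, and several tissue calls as well. Among these, Kif12, Kif17 and Kif19a had wild type brain means of 7.15, 7.15 and 7.24. Kif15 and Kif18a had wild type cord means of 6.87 and 6.83.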
